A study of Homo sapiens with 2 samples.

Results

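The genes described here encode the enzymes that make and break down polyamines and the proteins that control ornithine decarboxylase. The members are 10 genes chosen by symbol: ODC1, AMD1, SRM and SMS for synthesis, OAZ1, OAZ2 and AZIN1 for antizyme control, and SAT1, SMOX and PAOX for breakdown. All 10 were found, each as 1 row, among the 50868 genes listed. The group was proposed with the values of these libraries in view, so every level and ratio of a member is a description. The RNA came from KASUMI-1, a human acute myeloid leukaemia line with a RUNX1-RUNX1T1 fusion gene. The virus used for infection was the lentivirus pccl, read here as the control, in one culture and the lentivirus USP6, which shares its name with a deubiquitinase, in the other. Dose of virus and time after infection are not given in the sources used here. This comparison asks how messages differed between these cultures, with 1 library per group, so there is no replicate check and no test.

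Polyamines are small positively charged molecules that bind RNA and DNA and are needed for growth. Putrescine is made from ornithine, and spermidine and spermine are built from it by adding aminopropyl groups that derive from S-adenosylmethionine. Cells hold the pathway in balance through antizyme, a protein that binds ornithine decarboxylase and directs it to the proteasome without ubiquitin, and whose translation needs a ribosomal frameshift that polyamines promote. High polyamine synthesis is a known trait of proliferating and leukaemic cells, and ODC1 is a textbook target of the transcription factor MYC.

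The libraries had similar depth, with 12306442 counts (pccl) and 12518795 counts (USP6), of which the members took 14970 and 10460. Genes of the mitochondrial genome held 49.9% and 45.6% of the counts. A count of 0 allows a share of up to 0.244 CPM (counts scaled to the library total) for pccl and 0.240 CPM for USP6. USP6 itself had 8 counts in the pccl library compared with 70 in the USP6 library, and how reads of the viral construct were counted is unknown. Of 9 markers of myeloid blasts such as KIT, MPO and SPI1, 8 reached 1 FPKM (counts over gene length and over the total of the library), and CD38 did not. Their summed level was 241 FPKM in the pccl library compared with 408 FPKM in the USP6 library, but single markers went opposite ways. KIT was at 99.3 (pccl) and 40.0 FPKM (USP6) and CD34 at 12.6 and 4.19 FPKM, whereas MPO was at 27.4 and 122 FPKM and SPI1 at 94.0 and 230 FPKM. Of 30 markers of other blood, stromal or epithelial cells, 7 reached 1 FPKM and 9 were at 0 counts in both libraries. The 6 monocyte and granulocyte markers summed to 0.699 and 3.43 FPKM, with S100A8, S100A9 and FCGR3B at 0, ITGAM at 0.114 and 3.20 FPKM and LYZ at 0.564 and 0.0925 FPKM. The 7 T and NK cell markers summed to 29.4 and 31.1 FPKM, mostly CD3D at 27.8 and 22.6 FPKM, while CD3E was at 0.890 and 4.34 FPKM and CD2 at 0.156 and 3.10 FPKM. The 3 B cell markers summed to 2.68 and 10.6 FPKM, nearly all from CD79A at 2.60 and 10.5 FPKM. The 4 erythroid markers summed to 0.0796 and 0.0782 FPKM, with ALAS2 at 0. The 4 megakaryocyte markers summed to 0.257 and 1.19 FPKM, with PF4 and PPBP at 0. The 6 stromal and epithelial markers summed to 17.4 and 8.80 FPKM, nearly all from EPCAM at 17.3 and 8.77 FPKM, with COL1A2, DCN and KRT18 at 0. The part of these differences in the results below was not tested, and in bulk RNA fewer cells of a type and less RNA per cell cannot be told apart.

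The promoters of the member with the largest lower difference, ODC1, of the member with the highest FPKM, SRM, and of the antizyme gene OAZ1 are shown because these 3 genes carry the results below. Sequences are from RefSeq on GRCh38.p14, written on the strand of the gene, and windows run from 250 bases before to 50 bases after an annotated start. Of the 10 members, 7 were matched in that table, with 10 windows, since ODC1 has 2 starts and AMD1 has 3. AZIN1, SMOX and PAOX were not matched. Both strands were searched for the E-box CACGTG, to which MYC with MAX can bind, the CCAAT box CCAAT, the TATA box TATAA, the GC box GGGCGG and TGACG, part of the cAMP response element. Capitals mark E-boxes, CCAAT boxes and TATA boxes on either strand. The 3 long stretches end at the base before the start, and the 2 short ones are the surroundings of both E-boxes at the second start of ODC1.
ODC1, first start, chr2:10448328-10448577, minus strand: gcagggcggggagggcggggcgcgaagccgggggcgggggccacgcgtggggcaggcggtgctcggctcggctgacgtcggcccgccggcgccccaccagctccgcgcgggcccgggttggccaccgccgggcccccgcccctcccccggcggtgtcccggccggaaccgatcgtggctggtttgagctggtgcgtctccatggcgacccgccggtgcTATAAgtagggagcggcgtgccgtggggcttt
SRM, chr1:11060019-11060268, minus strand: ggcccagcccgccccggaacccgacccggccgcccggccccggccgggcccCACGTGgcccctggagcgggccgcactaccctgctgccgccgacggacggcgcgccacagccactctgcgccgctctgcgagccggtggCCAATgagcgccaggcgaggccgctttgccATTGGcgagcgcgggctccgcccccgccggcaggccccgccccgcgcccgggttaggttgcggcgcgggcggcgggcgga
OAZ1, chr19:2269236-2269485, plus strand: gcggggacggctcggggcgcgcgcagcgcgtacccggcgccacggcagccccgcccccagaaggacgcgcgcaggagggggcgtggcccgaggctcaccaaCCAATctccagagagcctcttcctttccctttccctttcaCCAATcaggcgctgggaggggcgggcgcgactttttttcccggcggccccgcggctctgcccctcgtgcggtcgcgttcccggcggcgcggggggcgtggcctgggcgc
ODC1, second start, E-box before the start, chr2:10448024-10448053, minus strand: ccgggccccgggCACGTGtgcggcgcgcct
ODC1, second start, E-box after the start, chr2:10447990-10448019, minus strand: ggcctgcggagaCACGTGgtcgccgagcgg

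The E-box was found in 2 of the 10 member windows, and in 7.26% of the 35116 windows of the same length in the table. In the second window of ODC1 it began 29 bases before and 5 bases after the start, and in SRM 199 bases before it. The first window of ODC1 held no E-box but a TATA box 32 bases before the start, a motif found in 20.4% of all windows. AMD1 had the TATA box in both overlapping windows at its downstream starts, 28 and 29 bases before them, and OAZ1 had it 6 bases after its start. CCAAT occurred in 34.6% of all windows, and SRM, OAZ1 and SAT1 each had it at 2 places, SMS and the upstream window of AMD1 at 1. The GC box occurred in 45.0% of all windows and 6 times each in the first ODC1 window and in SRM. TGACG occurred in 24.6% of all windows and in 7 of the 10 member windows, those of ODC1, AMD1, SMS and SAT1. The GC content of the member windows ran from 65.3% to 82.0%, against a median of 58.7% over all windows, and its part in these matches was not tested. The overlapping AMD1 windows hold nearly the same bases and are counted separately. These are matches of letters in a window and show no binding.

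ODC1 encodes ornithine decarboxylase, which makes putrescine in the first step of the pathway, and showed the largest lower difference of the group. The gene (ENSG00000115758) is listed on chromosome 2 from 10439968 to 10448504, on the minus strand. It had 3137 counts in the pccl library compared with 681 in the USP6 library, and its level was 67.9 and 14.5 FPKM. The USP6 library was thus 4.69-fold lower, with a 95% interval of 4.31 to 5.10. Intervals here and below come from the counts alone, hold no difference between cultures, and may be too narrow, since reads copied from 1 molecule are not independent. By FPKM, ODC1 ranked 236 among 10153 expressed genes in the pccl library compared with 1250 in the USP6 library. A gene was taken as expressed at 1 FPKM or more in the higher library. On the scale of log2((USP6 + 1)/(pccl + 1)) of FPKM, used for all log2 ratios in this text, ODC1 was at -2.15, and 1.22% of expressed genes had a lower ratio.

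AMD1 encodes S-adenosylmethionine decarboxylase, which makes the aminopropyl donor for spermidine and spermine. The gene (ENSG00000123505) is listed on chromosome 6 from 110814621 to 110895713, plus strand. It had 1972 and 948 counts and levels of 9.68 FPKM (pccl) and 4.58 FPKM (USP6), 2.12-fold lower with USP6 (1.96 to 2.29). Its log2 ratio was -0.94, and 13.0% of expressed genes lay lower. The start of its locus overlaps CDK19 on the other strand, which had 414 and 418 counts. Whether the libraries kept strand is not given in the sources used here, so reads of that overlap could be in either count.

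SRM and SMS encode spermidine synthase and spermine synthase, which add the aminopropyl groups. SRM (ENSG00000116649, chromosome 1 from 11054584 to 11060024, minus strand) had 3635 and 2837 counts and the highest FPKM of the members in both libraries; by counts OAZ1 was above it in the USP6 library. Its level was 88.1 FPKM in the pccl library compared with 67.6 FPKM in the USP6 library, 1.30-fold lower (1.24 to 1.37). SMS (ENSG00000102172, chromosome X from 21940573 to 21994835, plus strand) had 1138 and 732 counts, or 33.5 and 21.2 FPKM, 1.58-fold lower (1.44 to 1.74). All 4 synthesis genes were therefore lower in the USP6 library, by unequal folds. Of all 10153 expressed genes, 4830 had a log2 ratio below 0. Summed over the 4 synthesis genes, counts were 9882 and 5198, and the share of all counts was 1.93-fold lower (1.87 to 2.0). ODC1 held 3137 and 681 of these counts.

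**Figure D1:**
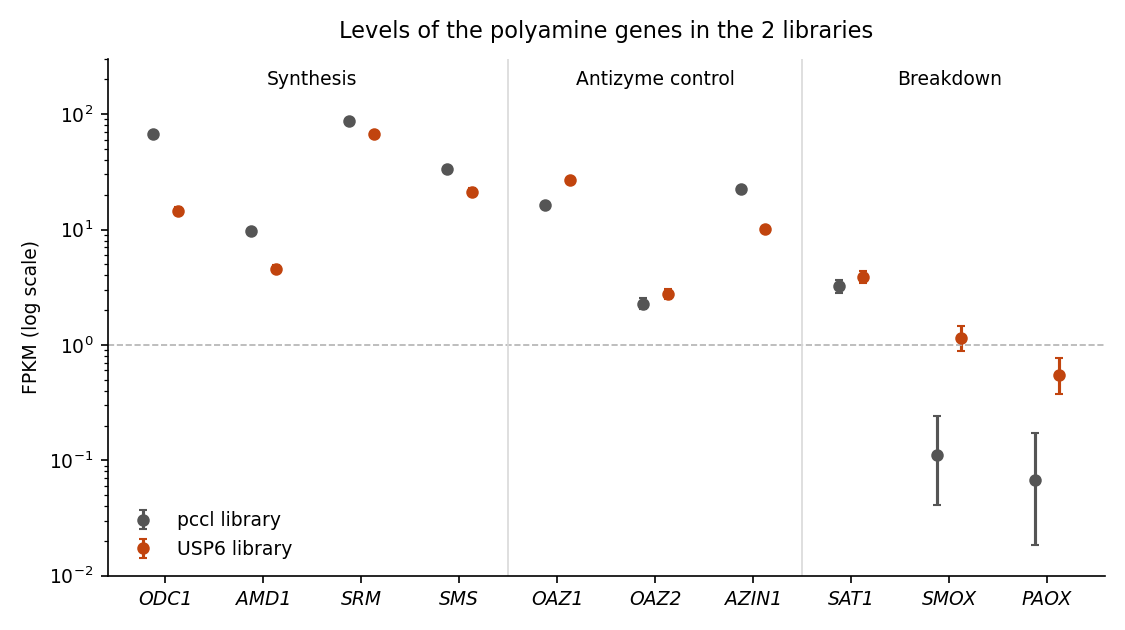
FPKM of each of the 10 genes on a log axis in the pccl library (grey) and the USP6 library (orange), with exact 95% Poisson intervals of the counts as bars, which are smaller than the points for abundant genes; the dashed line is 1 FPKM. All 4 synthesis genes and AZIN1 were lower in the USP6 library, as were 4830 of all 10153 expressed genes. SMOX and PAOX were under 1 FPKM in the pccl library.

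The antizyme genes and the gene of their inhibitor differed in opposite directions. OAZ1 encodes the main antizyme (ENSG00000104904, chromosome 19 from 2269509 to 2273490, plus strand) and had 1962 counts in the pccl library compared with 3286 in the USP6 library. Its level was 16.4 and 27.0 FPKM, 1.65-fold higher in the USP6 library (1.56 to 1.74), with a log2 ratio of 0.69. OAZ2, a second antizyme of lower abundance (ENSG00000180304, chromosome 15 from 64687573 to 64703281, minus strand), had 351 and 435 counts and 2.28 and 2.78 FPKM. That is a ratio of 1.22 (1.06 to 1.41), under the 1.5-fold limit. The antisense gene AC100830.3 inside its locus had 12 and 20 counts. AZIN1 encodes antizyme inhibitor, a relative of ornithine decarboxylase without enzyme activity that binds antizyme and so frees the enzyme. The gene (ENSG00000155096) is listed on chromosome 8 from 102826357 to 102893864, minus strand. It had 2533 and 1162 counts, or 22.6 and 10.2 FPKM, 2.22-fold lower with USP6 (2.07 to 2.38), with a log2 ratio of -1.08. Because OAZ1 and AZIN1 went opposite ways, the summed counts of the 3 control genes, 4846 and 4883, were nearly equal.

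Among the breakdown genes, SAT1 held most of the counts and both oxidases were scarce. SAT1 encodes spermidine/spermine acetyltransferase, the enzyme that marks polyamines for export or oxidation (ENSG00000130066, chromosome X from 23783173 to 23786226, plus strand). It had 232 and 283 counts and levels of 3.23 FPKM (pccl) and 3.87 FPKM (USP6), a ratio of 1.20 with an interval of 1.0045 to 1.43, just above equality. SMOX encodes spermine oxidase (ENSG00000088826, chromosome 20 from 4120980 to 4187747, plus strand) and had 6 counts in the pccl library compared with 63 in the USP6 library. Its level was 0.111 and 1.15 FPKM, a ratio of 10.3 (4.49 to 29.2). PAOX encodes the oxidase of acetylated polyamines (ENSG00000148832, chromosome 10 from 133379234 to 133391694, plus strand) and had 4 and 33 counts. At 0.0670 and 0.544 FPKM, a ratio of 8.11 (2.88 to 31.5), it was the only member under 1 FPKM in both libraries. A neighbour on the same strand that overlaps PAOX, AL360181.3, had 8 and 0 counts, so reads could have been divided between them. Both large ratios rest on few counts in the pccl library, and the intervals are wide.

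**Figure D2:**
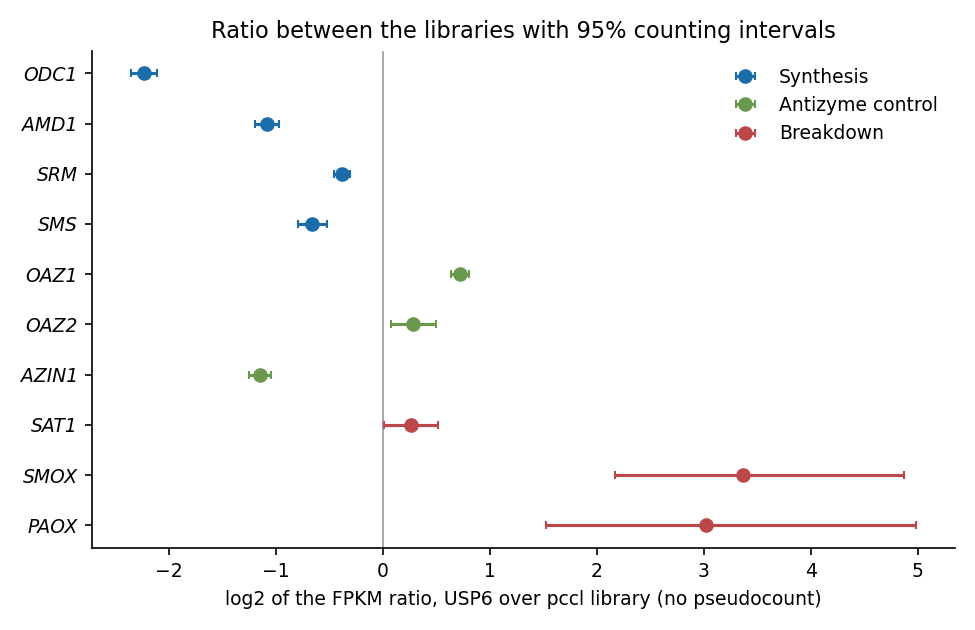
The log2 of the FPKM ratio, USP6 over pccl library and without a pseudocount, for the 10 genes, coloured by role, with exact 95% counting intervals as bars. ODC1 lies furthest to the left, both oxidases lie furthest to the right with the widest bars, and the bar of SAT1 ends just to the right of the line of equality.

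By the filter of 1 FPKM, 9 of the 10 members were expressed. Of these 9, SMOX passed the filter through the USP6 library alone, so SMOX could only be higher with USP6. Of these 9, 4 were lower (ODC1, AMD1, SMS and AZIN1) and 2 higher (OAZ1 and SMOX) by a log2 ratio of at least 0.58, about 1.5-fold. Over all expressed genes, 24.5% were lower and 27.9% higher by that limit. At the limit of 1, 2 members were lower, ODC1 and AZIN1, and 0 were higher, against 11.4% of all expressed genes lower and 13.7% higher. The median of the 9 was -0.38, and that of all expressed genes was 0.06. Calls at the limit of 1 changed with the processing. AMD1 was also past it with a pseudocount of 0.5 or 0.1 or with scaling by trimmed mean, median or nuclear counts, and SMOX with either of these pseudocounts. AZIN1 was not past it with a pseudocount of 5 or after centring on GC content, where SRM was. Differences of this size were common in these libraries, and 9 genes are too few to read their shares against the background. Without the filter PAOX joins at 0.53, and the median of the 10 members was -0.09.

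Ratios between members within a library do not depend on the scaling between libraries. Their folds between libraries still hold the trend with GC content set out below, and are given without centring on it. After that centring ODC1 was at -2.22 against -2.15, OAZ1 at 0.10 against 0.69 and AZIN1 at -0.80 against -1.08. ODC1 over OAZ1, the message of the enzyme over that of its main antizyme, was 4.14 (pccl) and 0.537 (USP6) in FPKM. That is a 7.71-fold lower ratio in the USP6 library (6.97 to 8.54). The order of these messages was thus reversed between the libraries. With OAZ2 added to OAZ1 the ratio was 3.63 and 0.487, 7.47-fold lower. AZIN1 over OAZ1, a ratio chosen after the values were seen, was 1.38 and 0.377, 3.65-fold lower (3.34 to 4.0). ODC1 over AZIN1 was 3.01 and 1.42, 2.11-fold lower (1.89 to 2.36), so ODC1 differed more than the gene of the antizyme inhibitor. AMD1 over ODC1 was 0.143 and 0.316, a 2.21-fold higher ratio in the USP6 library (1.97 to 2.48), since both were lower and ODC1 more so. SRM over SMS was 2.63 and 3.19, a fold of 1.21 (1.09 to 1.35). After centring on GC content SRM was at -1.08 and SMS at -0.49, against -0.38 and -0.64 before, so the order of these log2 ratios was reversed. SAT1 over ODC1, the message of the acetyltransferase over that of the first synthetic enzyme, was 0.0476 and 0.268, 5.62-fold higher (4.61 to 6.84). SAT1 over SMOX was 29.1 and 3.38, 8.61-fold lower, with a wide interval of 3.64 to 24.7 from the 6 counts of SMOX. Of the summed FPKM of all members, ODC1 held 27.8% in the pccl library compared with 9.45% in the USP6 library. OAZ1 held 6.73% and 17.6%, and the 3 breakdown genes together 1.40% and 3.63%.

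Levels compared between genes depend on the length used, and the deposited FPKM use an unusual one. The gene length implied by count and FPKM equalled the summed length of all distinct annotated exons, overlapping ones included, within 1 bp in 86.3% of 7876 well covered genes found in GENCODE release 29. For 10.2% of them the implied length exceeded the span of the locus. OAZ1 and SAT1 are such cases, with implied lengths of 9724 and 5834 bp in loci of 3982 and 3054 bp. Their merged exons cover 3436 and 2498 bp, so FPKM understates OAZ1 by 2.83-fold and SAT1 by 2.34-fold relative to a length that counts each base once. For ODC1 the same factor was 1.27, for SMS 1.28, for AZIN1 1.42, for SRM 1.77 and for AMD1 2.35. With FPKM recomputed per kilobase of merged exons, OAZ1 was at 46.4 in the pccl library compared with 76.4 in the USP6 library, and ODC1 at 85.9 and 18.3. On this scale ODC1 over OAZ1 was 1.85 and 0.240, and the fold between libraries was the same. Shares of the summed member level also depend on the length. By merged exons ODC1 held 21.6% (pccl) and 6.48% (USP6), and OAZ1 11.7% and 27.0%. The 3 breakdown genes together held 1.98% and 4.21%. In the pccl library the order by merged exons was SRM (156), ODC1, OAZ1, SMS (42.8), AZIN1 (32.0), AMD1 (22.8), SAT1 (7.55), OAZ2 (3.72), SMOX (0.166) and PAOX (0.143). In the USP6 library OAZ1 stood next after SRM (119), followed by SMS (27.1), ODC1, AZIN1 (14.4), AMD1 (10.8) and SAT1 (9.05), with OAZ2, SMOX and PAOX again last. By deposited FPKM OAZ1 stood below SMS and AZIN1 in the pccl library. The FPKM intervals of SMOX (0.0407 to 0.242) and PAOX (0.0183 to 0.172) overlapped in the pccl library. Those of AMD1 (4.29 to 4.88) and SAT1 (3.44 to 4.35) overlapped in the USP6 library.

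The members were also set beside the GC content of their longest transcripts, since the ratios of all genes followed it. In 10 classes of GC content, the lowest had a median log2 ratio of -0.37 and the highest one of 0.74. ODC1, at 51.2% GC, lay in a class with a median of 0.01, and 1.19% of the 1010 genes there had a lower ratio. After centring on the trend its log2 ratio was -2.22. SRM, at 63.7% GC, lay in the highest class, of which 7.52% had a lower ratio, and its centred value was -1.08 against -0.38 before. OAZ1, at 61.2% GC, was near the median of its class, 0.57, with 43.2% of its genes higher, and its centred value was 0.10 against 0.69. The difference of OAZ1 was thus close to that of the middle gene of like GC content. SMOX, at 61.0% GC, was at 0.37 after centring. AMD1, at 37.7% GC, and AZIN1, at 42.3%, lay in classes whose medians were -0.37 and -0.33. Their centred values were -0.58 and -0.80, with 21.3% and 15.4% of their classes lower still. SMS was at -0.49, SAT1 at 0.46 and OAZ2 at 0.26 after centring. All 4 synthesis genes and AZIN1 kept a ratio below 0 on this scale, where 4 members, with SRM in place of SMS, were lower by at least 0.58 and 0 were higher. Of the 10101 expressed genes with a GC value, 22.5% were lower and 22.1% higher by that limit after centring. The median of these genes after centring was -0.02. On this scale SRM lay further down than AMD1. The part of GC content in these differences was not tested.

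**Figure D3:**
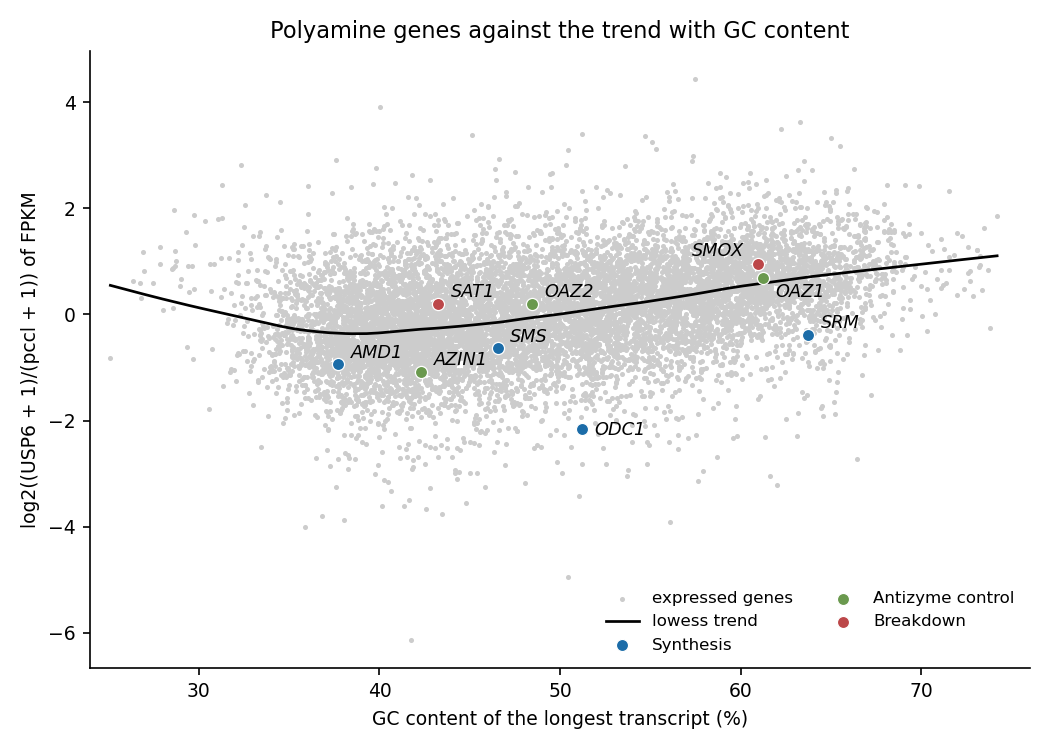
The log2 ratio of FPKM with a pseudocount of 1 against the GC content of the longest transcript for expressed genes (grey points), with the lowess trend (line) and the 9 expressed members, coloured by role. ODC1 and SRM lie well below the trend, whereas OAZ1 lies close to it.

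The wider pathway was described by a list of 46 genes. It covers supply of precursors, salvage of a by-product, and transport and use of polyamines. Relatives of members and genes of the MYC network are also on it. Of the 46 genes, 24 were expressed. Of these, 10 were lower and 5 higher by a log2 ratio of at least 0.58, beside 24.5% and 27.9% of all expressed genes. Their median was -0.38. At the limit of 1, 3 were lower (SLC7A2, OAT and ATP13A3) and 2 higher (ATP13A2 and MYC), beside 11.4% and 13.7% of all expressed genes. SLC7A2, OAT and AGMAT passed the filter through the pccl library alone, so their direction was fixed as lower with USP6. SAT2 and MYC passed it through the USP6 library alone, so theirs was fixed as higher. The counts at both limits include such genes.

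Of the genes that supply ornithine and arginine, 5 were expressed, and 3 of them were lower and 0 higher past 0.58. Over all expressed genes, 24.5% were lower and 27.9% higher by that limit. SLC7A2, OAT and AGMAT passed the filter through the pccl library alone, so these 3 could only be lower with USP6; SLC7A1 and ALDH18A1 reached 1 FPKM in both libraries. SLC7A2, a transporter of cationic amino acids, had 5.35 FPKM in the pccl library compared with 0.787 in the USP6 library, 6.8-fold lower (5.68 to 8.20). Its relative SLC7A1, the more abundant transporter in both libraries, was at 15.2 and 10.7 FPKM, 1.43-fold lower (1.32 to 1.54). OAT, ornithine aminotransferase, was at 3.10 and 0.955 FPKM, 3.25-fold lower (2.43 to 4.39). ALDH18A1, which starts the route from glutamate to proline and ornithine, was at 12.0 and 5.72 FPKM, a log2 ratio of -0.95. AGMAT was at 1.53 and 0.991 FPKM, with an interval that included equality (1.54-fold lower, 0.960 to 2.51). After centring on GC content, 4 of the 5 expressed genes were lower past 0.58, beside 22.5% of all expressed genes with a GC value. SLC7A2 was then at -1.51, ALDH18A1 at -0.93, OAT at -0.76, SLC7A1 at -0.62 and AGMAT at -0.50. Both arginase genes were under 1 FPKM, with ARG1 at 0 counts.

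S-adenosylmethionine supply and the salvage of methylthioadenosine, the by-product of both synthases, had 7 expressed genes. Of these, 4 were lower past 0.58 and 0 higher, beside 24.5% and 27.9% of all expressed genes. After centring on GC content 2 of the 4 were past it, ADI1 at -0.71 and MRI1 at -1.07, while MAT2B was at -0.58, just short of the limit, and APIP at -0.45. In the salvage route, ADI1 was at 12.4 and 5.92 FPKM, 2.10-fold lower (1.89 to 2.35), MRI1 2.17-fold (1.85 to 2.56) and APIP 2.19-fold lower (1.71 to 2.82). MTAP, the phosphorylase that opens this route, was at 1.40 and 1.07 FPKM. MAT2A, the catalytic subunit of S-adenosylmethionine synthesis, was higher, with 42.0 and 54.0 FPKM, a ratio of 1.29 (1.23 to 1.35). Its partner MAT2B was 2.62-fold lower (2.17 to 3.18).

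Of the 4 expressed transport genes, 3 had a log2 ratio above 0 and 1 below it. Over all 10153 expressed genes, 5323 were above 0 and 4830 below. ATP13A2, a lysosomal polyamine exporter, had 1.28 and 4.32 FPKM, a ratio of 3.38 (2.78 to 4.13). ATP13A3, a P-type ATPase linked to polyamine uptake, had 6.85 and 2.59 FPKM, 2.64-fold lower (2.43 to 2.87). SLC3A2, the heavy chain of several amino acid transporters, was at 5.52 and 9.45 FPKM. Its log2 ratio was 0.68, and 0.30 after centring on GC content. SLC22A16 was at 1.49 and 2.11 FPKM, a ratio of 1.42 (1.11 to 1.83), with a centred log2 ratio of 0.40. ATP13A2 and ATP13A3 differ in GC content, 64.3% and 37.2%, and their centred log2 ratios were 0.49 and -0.78, against 1.22 and -1.13.

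Spermidine is also the donor for hypusine, an amino acid made only on the translation factor eIF5A. EIF5A was at 33.1 and 24.4 FPKM, 1.36-fold lower (1.27 to 1.44), and EIF5A2 2.14-fold lower (1.65 to 2.81). EIF5AL1, at 8.19 and 4.22 FPKM, is a near-identical copy of EIF5A, and reads could be divided between them. The 2 modifying enzymes went the other way. DHPS, which transfers the aminobutyl group of spermidine, was at 1.95 and 3.15 FPKM, and DOHH, which completes hypusine, at 4.14 and 7.88 FPKM, a ratio of 1.91 (1.63 to 2.23). After centring on GC content DHPS was at 0.10 and DOHH at -0.06, EIF5A at -0.80 against -0.42, EIF5A2 at -0.45 against -0.66 and EIF5AL1 at -0.63 against -0.82.

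SAT2, a relative of SAT1, had 0.668 and 1.98 FPKM, a ratio of 2.96 (2.28 to 3.88), and passed the filter through the USP6 library alone. MYC did so too, with 22 counts in the pccl library compared with 160 in the USP6 library, or 0.199 and 1.43 FPKM, a ratio of 7.15 (4.56 to 11.7). Its partner MAX was at 2.50 and 2.07 FPKM. After centring on GC content SAT2 was at 0.52, MYC at 0.82 and MAX at -0.26. Having passed the filter in this way, SAT2 and MYC could only be higher with USP6. MYC was higher, at a low level, in the library in which ODC1 was lower, and a link between them was not tested.

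**Figure D4:**
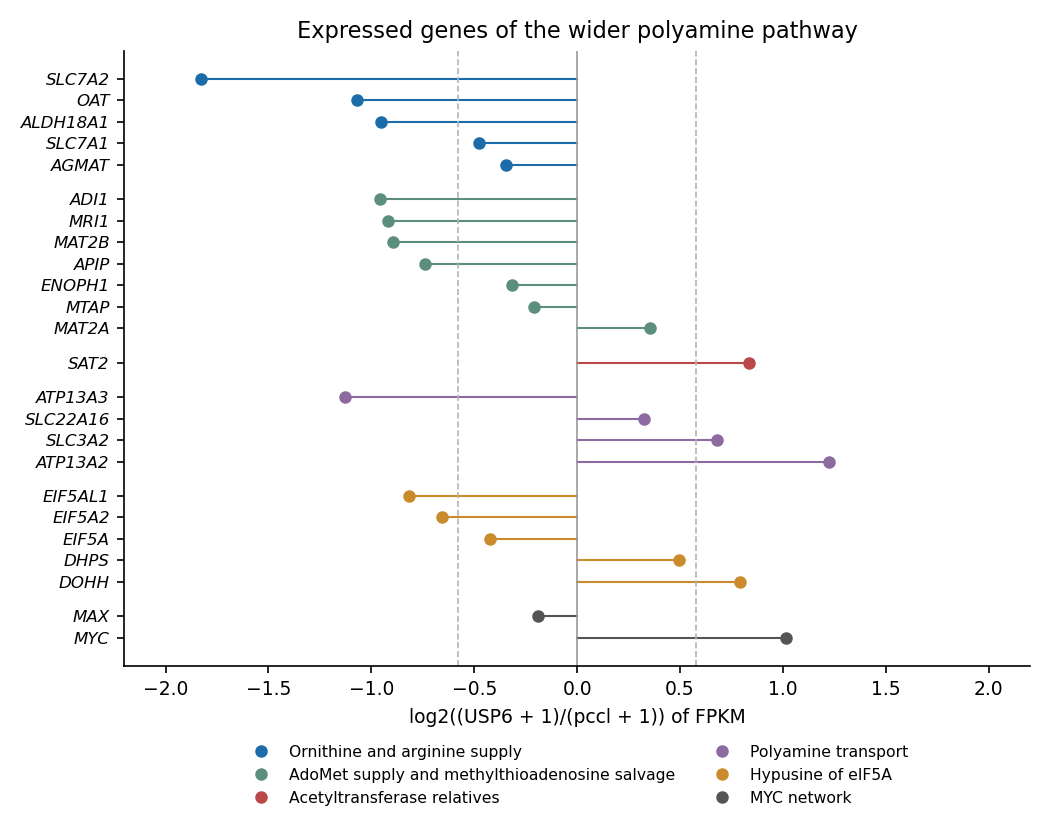
The log2 ratio of FPKM with a pseudocount of 1 for the 24 expressed genes of the wider pathway, grouped and coloured by role; dashed lines mark 0.58 in either direction. The 5 supply genes, 3 of which passed the filter through the pccl library alone, lie to the left of 0, whereas the transport and hypusine genes lie on both sides.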

How the data were processed

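RNA sequencing of 2 libraries, 1 per group, was analysed. HISAT2 2.0.4, StringTie 1.3.3b and edgeR are listed, with no role, per the submitters' processing notes; build, annotation, strandedness and RNA selection are not given in the sources used here. Per the file headers, the authors deposited whole-number counts per gene and FPKM values. Each deposited FPKM is the count over the column total and a length of the gene. Coordinates are as listed; 94.9% of 50111 identifiers, and 9 of 10 members (not AMD1), have the same locus in GENCODE 29 (GRCh38).

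Values were summed per symbol (50464 symbols). Ratios between libraries are FPKM ratios with exact conditional binomial (Clopper-Pearson) 95% intervals; folds of a ratio of 2 genes have exact conditional odds-ratio intervals. With 0 residual degrees of freedom no test was run. GC content is that of the longest GENCODE 29 transcript, with a lowess trend of span 0.3. The members and lists were chosen with earlier results of these data known. Named were all members and, of the wider list, expressed genes past 1 or -1 and up to 2 per role of largest log2 ratio. Others of that list named here were chosen for their role after their values were seen. These were SLC7A1, ALDH18A1, APIP, MTAP, MAT2A, MAT2B, SLC3A2, SLC22A16, EIF5A, EIF5A2, DHPS, AGMAT and ARG1. A marker of the cell type lists is not reported here. Alternatives changed the pseudocount, filter and scaling (edgeR 4.0.16 for the trimmed mean of M values), or centred on GC; merged exon lengths were added after the data were seen. Ratios and intervals were tested on simulated data. Python 3.11.15, SciPy 1.17.1, statsmodels 0.14.6 and R 4.3.3 were used.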

Additional observations from a re-analysis of the deposited data

How the results depend on the processing

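No paired analysis was possible because each group has 1 library. Every member kept the sign of its log2 ratio under all scalings and GC centring (PAOX, under the filter, was not centred). A change of pseudocount cannot change that sign. Of 79 values under a changed pseudocount, scaling or GC centring, 63 stayed within the counting interval once it was moved to lie around the main log2 ratio. That interval is of the ratio without a pseudocount, and unmoved it does not hold the main log2 ratio of every member. ODC1 ranged from -2.26 to -1.90, OAZ1 from 0.10 to 0.72, SRM from -1.08 to -0.36, SMOX from 0.27 to 2.56 and PAOX from 0.13 to 1.95. Of the members past 0.58, those higher were 1 rather than 2 with a pseudocount of 5, a filter of 5 FPKM or scaling by nuclear counts. After GC centring 0 were higher. Those lower were 3 rather than 4 with a pseudocount of 5, where SMS fell short of the limit. The member median of -0.38 was -0.79 with the 5 FPKM filter, -0.087 with no filter and -0.49 after GC centring. It was -0.48 with trimmed-mean scaling and -0.49 with nuclear counts. Scaling by nuclear counts moved the median of all genes by -0.11. Of the wider list, 5 higher became 0 with a pseudocount of 5, 2 with the 5 FPKM filter and 1 after GC centring, and 10 lower became 4 and 6 with that pseudocount and filter. Over all genes at 0.58, 1105 were higher and 951 lower with a pseudocount of 5, and 1366 and 1191 with the 5 FPKM filter, against 2831 and 2489. At 1, 2295 were higher and 1993 lower with a pseudocount of 0.1, 364 and 301 with 5, and 808 and 682 with the 5 FPKM filter, against 1396 and 1156. A larger pseudocount shrinks the ratios of low genes and the filter leaves fewer genes; for the rest the cause was not tested. Adding pseudogene reads moved no fold of a ratio between members by 1% or more, as 9 listed pseudogenes held 1 count in all. Per kilobase of merged exons, chosen after the data were seen, the fold of ODC1 over both antizymes was 0.132 rather than 0.134. Depth limits SMOX and PAOX, with 6 and 4 counts in the pccl library.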

Other observations

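The divergent transcript ODC1-DT, which starts on the other strand within 1000 bp of ODC1, had 8 counts (pccl) and 24 counts (USP6), the opposite direction to ODC1 at a far lower level.

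Of the 22 wider pathway genes under 1 FPKM, 11 had 0 counts in both libraries, among them OTC of the urea cycle, AZIN2 and SLC18B1, a vesicular polyamine transporter. ASL, argininosuccinate lyase, had 26 counts (pccl) and 5 counts (USP6), and SLC25A15, the mitochondrial ornithine carrier, had 13 and 4. OAZ3, an antizyme known from testis, had 0 and 10 counts. These genes, named after their counts were seen, are given as counts only.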
